A study of Rattus norvegicus with 8 samples.

Results

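The genes described here are 36 genes of the kinetochore and the spindle assembly checkpoint, measured in germ cells of prepubertal rats 24 h after a dose of doxorubicin. They were taken from a list of gene symbols, and each symbol matched 1 row of the count table, so that they make up 36 of its 24059 genes. All 36 were among the 16976 genes with enough counts to be tested, and the smallest estimated count of any of them in any library was 382. The cells were GFP-positive germ cells from the testes of transgenic Sprague-Dawley rats of the GCS-EGFP genotype, in which a green fluorescent reporter allows the cells to be collected, and polyA RNA was sequenced. The reporter was carried by every rat, and the promoter that drives it is not given in the sources used here. At postnatal day 6, 4 rats (numbers 2, 3, 6 and 8) received doxorubicin at 5 mg/kg and 4 rats (numbers 1, 4, 5 and 9) received vehicle, with 1 library per rat. Doxorubicin, an anthracycline used in chemotherapy, leaves DNA strand breaks by holding topoisomerase II in place after it has cut.

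The kinetochore is the protein machine that assembles on each centromere and holds the chromosome to spindle microtubules. Its inner layer, the constitutive centromere-associated network (CCAN), sits on nucleosomes that contain the histone variant CENP-A, and its outer layer, built from the Ndc80 and Mis12 complexes with Knl1, binds the microtubules. While a kinetochore is unattached, the kinases Ttk and Bub1 and the Mad and Bub proteins of the spindle checkpoint hold back the anaphase-promoting complex (APC/C) and so delay chromosome separation. In cycling cells several of these transcripts peak in G2 and M phase, when the genes are released from repression by the DREAM complex, which binds an element called CHR in their promoters. Germ cells of this age in the rat testis include dividing spermatogonia, the cells that later start spermatogenesis.

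The 8 libraries held between 41253789 and 58870999 estimated counts. Levels are given as counts-per-million (CPM) after TMM scaling, which corrects for differences in library composition, and changes as the log2 fold change of doxorubicin over control with its standard error (SE). The labelled cell type was checked with 9 germ cell markers, among them Ddx4 and Dazl, which summed to 2005 to 2110 CPM in controls and 2041 to 2088 CPM after doxorubicin. The 44 markers of Sertoli, Leydig, peritubular, endothelial, blood and other non-germ cells together summed to 242.9 to 263.8 CPM in controls and 236.1 to 283.2 CPM after doxorubicin. The 7 macrophage and leukocyte markers summed to 2.88 to 3.60 CPM in controls and 3.27 to 4.10 CPM after doxorubicin. The 5 erythroid markers summed to 6.33 to 8.20 and 8.18 to 13.7 CPM and did not move as 1 group. Slc4a1, which encodes an erythrocyte anion exchanger, lay between 2.62 and 3.36 CPM in controls and rose to between 6.08 and 10.8 CPM after doxorubicin (edgeR adjusted p = 0.0339). The haemoglobin genes Hbb and Hba-a1 had log2 fold changes of -1.17 and -0.88, with adjusted p of 0.192 and 0.206 by edgeR and of 0.0265 and 0.0418 by DESeq2. The part of other cells in the results below was not tested. Cdkn1a, the cell cycle inhibitor p21 and a p53 target, stood at 6.14, 5.86, 5.37 and 5.56 CPM in control rats 1, 4, 5 and 9 and at 35.99, 15.0, 15.1 and 16.9 CPM in doxorubicin rats 2, 3, 6 and 8. All treated rats lay above all controls for Cdkn1a, and rat 2 stood apart from the other treated rats (log2 fold change 1.86, edgeR adjusted p = 0.107, DESeq2 adjusted p = 7.04e-06). In such bulk samples a change in the share of dividing cells and a change in RNA per cell cannot be told apart.

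The log2 fold changes of the 36 kinetochore and checkpoint genes were small. Their summed level was 3583 to 3668 CPM in controls and 3738 to 3851 CPM after doxorubicin, without overlap. Genes with high counts weigh most in this sum, and no share for sums of other genes was computed. The 8 genes listed as peaking in G2 and M phase had small positive log2 fold changes. That list was written with earlier results of these data known. The log2 fold changes of the 36 genes ran from -0.16 for Spc24 to 0.24 for Cenpa, with a median of 0.03, and 23 were positive and 13 negative. Over all 16976 genes tested, 47.76% of the log2 fold changes were positive and the median was -0.0047. With edgeR's quasi-likelihood test and Benjamini-Hochberg adjustment over all genes, none of the 36 passed a threshold of 0.05, a threshold that 0.112% of all genes passed. With DESeq2, another count test, 2 of the 36 were called, Cenpa and Cenpf, both higher, where 0.816% of all genes were called higher. Without adjustment, 10 of the 36 had an edgeR p below 0.05 with a higher level, against 4.19% of all genes and 4.85% of the 9358 genes within the same range of mean CPM. None of the 36 had such a p with a lower level, against 2.56% of all genes. In 8 of the 36 every treated rat lay above every control rat, against 2.77% of all genes and 3.20% of genes within the same range of mean CPM. In 1 of the 36, Cenpk, every treated rat lay below every control rat, against 1.95% of all genes. That count of lower genes was 4 without control rat 9 and 2 without doxorubicin rat 8, and 0 when the libraries were scaled by their size only. The share of all genes was not computed in these settings. Leaving a rat out makes a lack of overlap easier for every gene, so these counts cannot be set against the 1.95%.

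Mean control levels of the 36 genes ran from 9.27 CPM for Cenpq to 469.8 CPM for Zwint, with a median of 61.4 CPM, and no gene lengths were at hand to compare levels between genes. The coefficient of variation between control rats had a median of 3.82% over the 36 genes and ran from 0.353% for Zwint to 16.3% for Cenpl. Between treated rats its median was 3.21%, with the highest value, 11.2%, for Cenpm. The 95% interval of a log2 fold change reached a median of 0.11 to either side of the estimate, from 0.06 for Zwint to 0.22 for Cenpl. Of the 36 intervals, 26 held 0, 10 lay above 0 and 0 lay below it. These 10 are the genes counted above with an unadjusted edgeR p below 0.05, not a separate result. Over all genes, 4.19% had such a p with a higher level and 2.56% with a lower one.

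**Figure D1:**
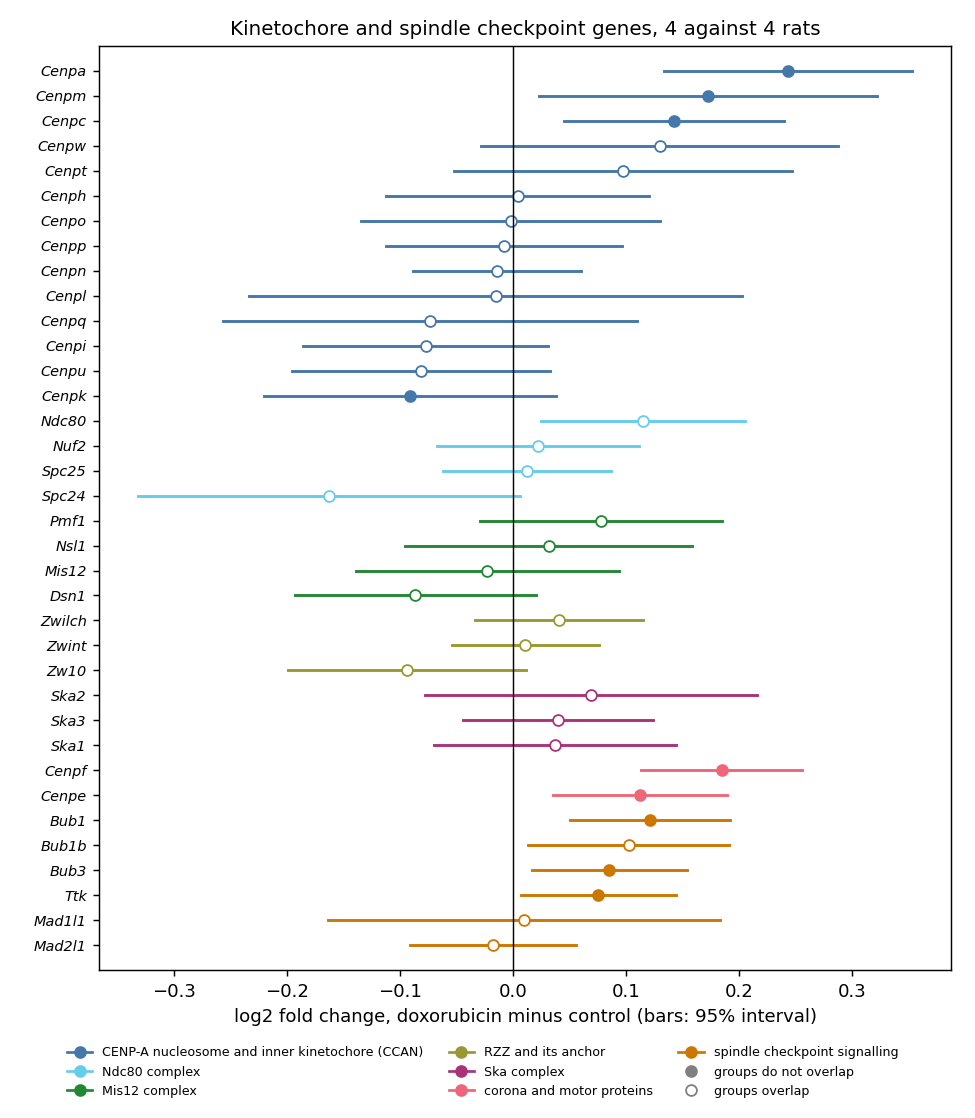
Log2 fold change of doxorubicin over control (x axis) for each of the 36 genes (y axis), coloured by role, with bars for the 95% interval from edgeR over 4 against 4 rats and filled points for genes whose groups do not overlap. The estimates lie between -0.16 and 0.24, and the 10 intervals that lie above 0 belong to Cenpa, Cenpm, Cenpc, Ndc80, Cenpf, Cenpe, Bub1, Bub1b, Bub3 and Ttk. These are the 10 genes with an unadjusted edgeR p below 0.05 and a higher level, against 4.19% of all genes.

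Among the corona and motor proteins of the outer kinetochore, both genes measured were higher in every treated rat than in every control, against 2.77% of all genes. Cenpf encodes a large protein of the fibrous corona, the outermost layer of an unattached kinetochore. Its level was 435.8, 421.8, 416.2 and 431.3 CPM in control rats 1, 4, 5 and 9 and 502.5, 477.0, 467.1 and 491.3 CPM in doxorubicin rats 2, 3, 6 and 8. The lowest treated rat thus lay above the highest control, and rats 2 and 8 were the highest. The log2 fold change of Cenpf was 0.18 ± 0.03 (SE, n = 4 each), with an adjusted p of 0.0661 by edgeR and of 0.00024 by DESeq2. In an edgeR fit that kept rats 1 to 4 and rats 5 to 9 as separate sets the adjusted p was 0.0347, and 1 of the 36 genes was called, where 0.359% of all genes were called. Cenpe encodes the kinesin motor that carries chromosomes along microtubules to the spindle equator. Its level was 175.4, 172.7, 175.6 and 183.7 CPM in the 4 controls and 200.0, 188.3, 186.5 and 189.7 CPM in the 4 treated rats, in the same order of rats. The gap between control rat 9 and the lowest treated rat was small. The log2 fold change was 0.11 ± 0.04 (SE, n = 4 each), and it did not pass the test (edgeR adjusted p = 0.421, DESeq2 adjusted p = 0.242).

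The inner kinetochore held the highest log2 fold change among the 36 genes, in Cenpa, the histone H3 variant whose nucleosomes mark the centromere. Cenpa stood at 66.5, 64.9, 67.8 and 61.2 CPM in control rats 1, 4, 5 and 9 and at 81.3, 72.2, 74.0 and 80.95 CPM in doxorubicin rats 2, 3, 6 and 8. The groups did not overlap, and rats 2 and 8 were again the highest. The log2 fold change was 0.24 ± 0.05 (SE, n = 4 each), with an adjusted p of 0.101 by edgeR and of 0.00428 by DESeq2. Cenpc encodes the protein that links CENP-A nucleosomes to the Mis12 complex. Its level was 49.7, 54.9, 51.0 and 51.5 CPM in the controls and 56.4, 59.5, 57.4 and 55.3 CPM after doxorubicin. Control rat 4 came within less than 1 CPM of the lowest treated rat, and the log2 fold change of 0.14 ± 0.05 (SE, n = 4 each) did not pass the test (edgeR adjusted p = 0.422). Cenpm, a CCAN subunit, stood at 40.5, 43.2, 42.8 and 43.0 CPM in the controls and at 55.0, 43.3, 44.2 and 48.6 CPM after doxorubicin. Rats 3 and 6 lay just above the controls and rat 2 well above them, and the log2 fold change was 0.17 ± 0.07 (SE, n = 4 each, edgeR adjusted p = 0.635).

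The remaining 11 inner kinetochore genes were divided in sign and none passed the test. Cenpk, which belongs to the CENP-HIKM module of the CCAN, stood at 16.4, 17.7, 16.9 and 16.6 CPM in the controls and at 15.7, 15.4, 16.4 and 16.1 CPM after doxorubicin. All treated rats lay below all controls, the closest pair differing by less than 0.1 CPM, and the log2 fold change was -0.09 ± 0.06 (SE, n = 4 each, edgeR adjusted p = 0.854). Over the 14 genes of this layer, 6 log2 fold changes were positive and 8 negative, with a median of -0.0051. Partners within a module did not share a sign throughout: Cenpi and Cenpk, of the same module as Cenph and Cenpm, had log2 fold changes of -0.08 and -0.09, whereas those of Cenph and Cenpm were 0.00 and 0.17. Cenpt and Cenpw, which form a histone-fold complex that recruits Ndc80, had log2 fold changes of 0.10 and 0.13 with intervals that held 0. Cenpn, which contacts the CENP-A nucleosome, was among the genes with the narrowest intervals, with an estimate of -0.01 (95% interval -0.09 to 0.06).

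The microtubule-binding Ndc80 complex has 4 subunits, and their transcripts did not move together. Ndc80 itself, whose protein touches the microtubule, stood at 110.3, 105.9, 112.5 and 101.2 CPM in control rats 1, 4, 5 and 9 and at 118.8, 111.6, 115.5 and 119.6 CPM in doxorubicin rats 2, 3, 6 and 8. Treated rat 3 lay below control rat 5, so the groups overlapped, and the log2 fold change was 0.11 ± 0.04 (SE, n = 4 each, edgeR adjusted p = 0.54). Nuf2, its dimer partner, was flat, at a log2 fold change of 0.02 (95% interval -0.07 to 0.11). Spc25, of the part that binds the inner kinetochore, was as flat, at 0.01 (95% interval -0.06 to 0.09). Spc24, the partner of Spc25, had the lowest log2 fold change of all 36 genes. Its level was 20.8, 21.5, 19.4 and 16.8 CPM in the controls and 18.5, 17.1, 17.6 and 17.1 CPM after doxorubicin. Control rat 9 was the lowest of all 8 rats, while the other 3 controls lay above every treated rat. The log2 fold change of Spc24 was -0.16 ± 0.08 (SE, n = 4 each) and did not pass the test (edgeR adjusted p = 0.757).

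In the Mis12 complex, which joins the inner and outer layers, 2 of 4 log2 fold changes were positive, with a median of 0.0042. Dsn1, a subunit of this complex, stood at 108.3, 98.1, 102.3 and 91.2 CPM in the controls and at 94.0, 92.4, 97.2 and 93.2 CPM after doxorubicin. The controls were more widely spread than the treated rats and the groups overlapped, with a log2 fold change of -0.09 ± 0.05 (SE, n = 4 each, edgeR adjusted p = 0.812). The log2 fold changes of Mis12, Nsl1 and Pmf1 were -0.02, 0.03 and 0.08, and their groups overlapped too.

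Of the 6 spindle checkpoint genes, 5 had positive log2 fold changes, with a median of 0.08 over the 6. In Bub1, Bub3 and Ttk every treated rat lay above every control, against 2.77% of all genes. Bub1 encodes a kinase that marks centromeric chromatin and recruits other checkpoint proteins to Knl1. Its level was 259.7, 274.4, 255.5 and 262.7 CPM in control rats 1, 4, 5 and 9 and 284.4, 293.2, 286.2 and 280.7 CPM in doxorubicin rats 2, 3, 6 and 8. Rat 2 was not the highest here, and the log2 fold change was 0.12 ± 0.03 (SE, n = 4 each), with an adjusted p of 0.268 by edgeR and of 0.0887 by DESeq2. Bub3, the adaptor that carries Bub1 and BubR1 to the kinetochore, stood at 167.3, 166.7, 172.5 and 172.6 CPM in the controls and at 182.5, 175.4, 182.2 and 180.3 CPM after doxorubicin. Its log2 fold change was 0.09 ± 0.03 (SE, n = 4 each, edgeR adjusted p = 0.574). Ttk, also called Mps1, is the kinase that starts checkpoint signalling. Its level was 209.9, 210.2, 206.3 and 211.5 CPM in the controls and 227.7, 222.0, 213.5 and 219.6 CPM after doxorubicin. Treated rat 6 lay only slightly above the highest control, and the log2 fold change was 0.08 ± 0.03 (SE, n = 4 each, edgeR adjusted p = 0.666).

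The other 3 checkpoint genes overlapped between groups. Bub1b encodes BubR1, a subunit of the mitotic checkpoint complex that inhibits the APC/C, and its log2 fold change was 0.10 (95% interval 0.01 to 0.19.) Mad2l1 encodes Mad2, the subunit that captures the APC/C activator Cdc20. Its log2 fold change was -0.02 (95% interval -0.09 to 0.06), so the upper bound lay below the estimates for Bub1 and Cenpf. Mad1l1, the kinetochore receptor of Mad2, had a log2 fold change of 0.01, and its interval of -0.16 to 0.18 was among the widest.

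**Figure D2:**
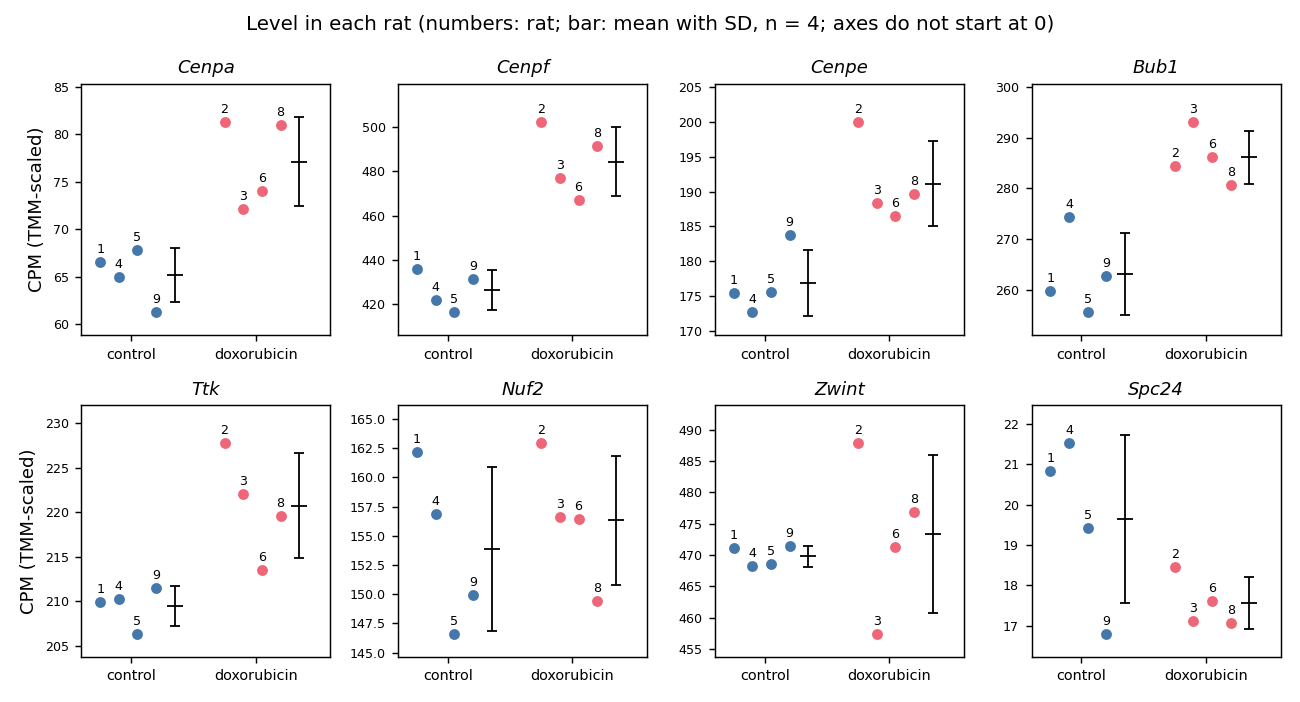
Level of 8 kinetochore and checkpoint genes in each rat, in TMM-scaled CPM (y axes, which do not start at 0), by group, with rat numbers above the points and the mean with its SD over 4 rats as a bar. The treated rats lie above all controls for Cenpa, Cenpf, Cenpe, Bub1 and Ttk and overlap the controls for Nuf2, Zwint and Spc24.

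The RZZ complex and its anchor recruit dynein and the Mad proteins to unattached kinetochores, and none of the 3 genes measured had groups that did not overlap. Zwint, the anchor, differed least between control rats, at 471.1, 468.2, 468.5 and 471.4 CPM. Its treated values of 487.8, 457.4, 471.3 and 476.9 CPM lay on both sides of them, and the log2 fold change was 0.01 (95% interval -0.05 to 0.08.) Zwilch, an RZZ subunit, had a log2 fold change of 0.04. Zw10, another RZZ subunit that also acts in vesicle transport, stood at 72.3, 76.5, 68.6 and 74.4 CPM in the controls and at 65.3, 72.7, 69.7 and 65.6 CPM after doxorubicin. Rats 2 and 8 lay below all controls and rats 3 and 6 among them, with a log2 fold change of -0.09 ± 0.05 (SE, n = 4 each, edgeR adjusted p = 0.793).

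The Ska complex stabilises the grip of the Ndc80 complex on microtubules, and its 3 genes had small positive log2 fold changes of 0.04 for Ska1, 0.07 for Ska2 and 0.04 for Ska3. Ska3 stood at 212.0, 195.9, 204.3 and 195.0 CPM in control rats 1, 4, 5 and 9 and at 206.0, 198.1, 209.5 and 216.2 CPM in doxorubicin rats 2, 3, 6 and 8. The groups overlapped (edgeR adjusted p = 0.941). Within rats 1 to 4 the sign of all 3 genes turned, with log2 fold changes of -0.0069 for Ska1, -0.0147 for Ska2 and -0.0064 for Ska3.

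The genes can also be divided by the list of those taken to peak in G2 and M phase. The 8 genes listed as peaking in G2 and M phase (Cenpa, Cenpe, Cenpf, Bub1, Bub1b, Ttk, Ndc80 and Nuf2) all had positive log2 fold changes, with a median of 0.11, and 7 of them had an unadjusted edgeR p below 0.05 with a higher level, against 4.19% of all genes and 4.85% of genes within the range of mean CPM of the 36. The list was written with earlier results of these data known, so its count is not independent evidence, and no test was run on it. The summed level of these 8 genes was 1577, 1572, 1533 and 1557 CPM in control rats 1, 4, 5 and 9 and 1747, 1699, 1668 and 1690 CPM in doxorubicin rats 2, 3, 6 and 8. The sums did not overlap, and rat 2 had the highest. For the other 28 genes the sums were 2091, 2056, 2050 and 2035 CPM in the controls and 2103, 2038, 2091 and 2105 CPM in the treated rats, which overlapped. Among these 28 genes 15 log2 fold changes were positive and 13 negative, with a median of 0.007, or of -0.0009 when the libraries were scaled by size only. The 28 are the genes left off the list, and whether some of them also peak in G2 and M phase was not checked. The difference between the 8 and the 28 genes was not tested.

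The values were also computed within rats 1 to 4 and within rats 5 to 9, sets that the labels tell apart by rat number only. Within rats 1 to 4 the median log2 fold change was 0.12 over the 8 genes and -0.01 over the other 28, and within rats 5 to 9 it was 0.11 and 0.03. Each of the 8 genes had a positive log2 fold change in both sets, while 12 of the other 28 had opposite signs in the sets. For Cenpa, Cenpe, Cenpf, Bub1 and Ttk, whose groups did not overlap, a positive sign in both sets was nearly fixed in advance. The sets hold the same rats as the main fit, so their signs are not independent evidence. How many of all genes kept their sign across the sets was not computed. The 6 genes with a negative value in both sets were Cenpi, Cenpk, Cenpu, Spc24, Dsn1 and Zw10. Doxorubicin rat 2 had the highest treated value in 15 of the 36 genes and in 5 of the 8. Rats 3, 6 and 8 had it in 6, 5 and 10 of the 36 and in 2, 0 and 1 of the 8. How often each rat was the highest over all genes was not computed. Without rat 2 the median over the 8 genes was 0.10.

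**Figure D3:**
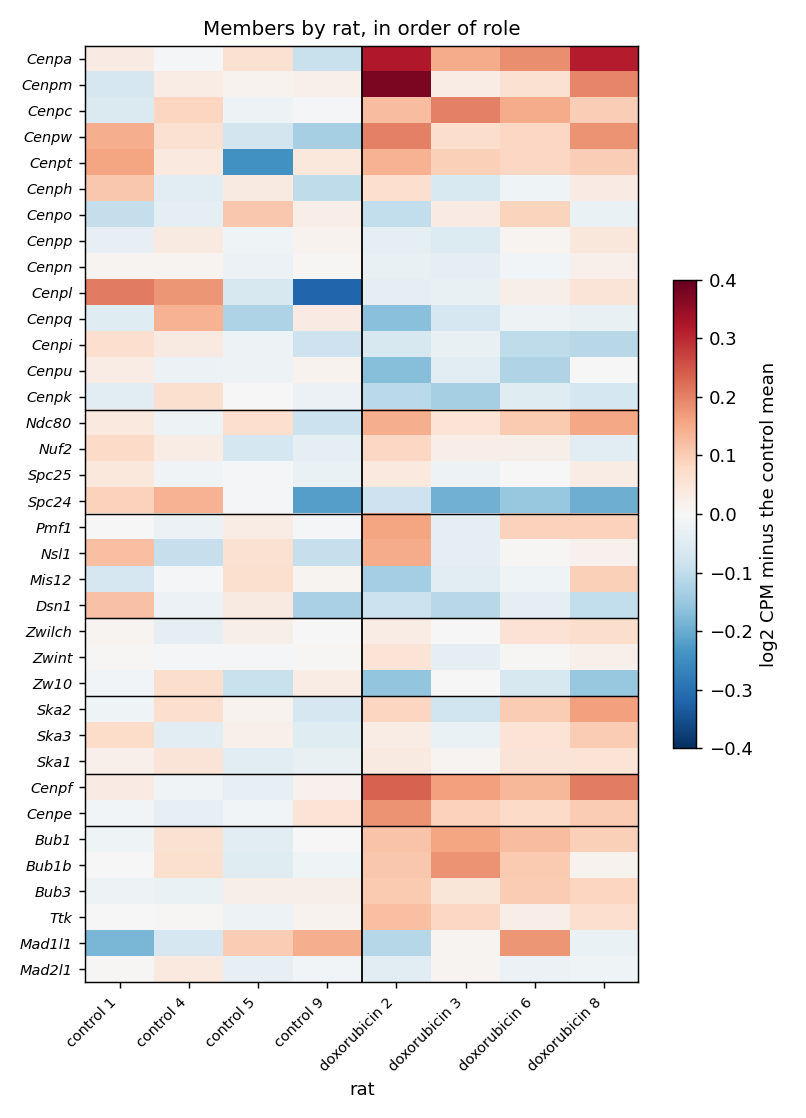
Log2 CPM of each of the 36 genes (rows, in order of role) in each rat (columns), minus the mean of the 4 controls, with red for higher and blue for lower values. Cenpf, Cenpe and Bub1 are higher in all 4 treated rats, and Spc24 and Zw10 are lower in several of them.

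Levels of general proliferation genes are given beside these values. Over 9 such genes (replication and cycling markers) 8 log2 fold changes were negative, with a median of -0.05. Of the 9, 1 had an unadjusted edgeR p below 0.05 with a higher level, against 4.19% of all genes. With a lower level it was 2 of the 9, against 2.56% of all genes. Mki67, a marker of cycling cells, averaged 765.0 ± 19.7 CPM in controls and 762.0 ± 30.8 CPM after doxorubicin (SD, n = 4 each), and its log2 fold change was -0.01 (edgeR adjusted p = 0.994). Top2a, the mitotic topoisomerase that doxorubicin acts on, averaged 334.0 ± 16.5 and 361.2 ± 12.1 CPM (SD, n = 4 each), with no overlap between groups and an estimated log2 change of 0.11 (edgeR adjusted p = 0.528). Whether the share of cells in G2 or M phase moved with the 8 genes was not tested.

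Of the 8 genes, Cenpa, Cenpf, Bub1b, Ndc80 and Ttk had intervals above 0 and a CHR motif. Nuf2 had the motif and a flat level. The promoters of 5 of these genes, all but Ndc80, are shown as examples. They come from the RefSeq promoter table of assembly GRCr8, not from the build of the count table, and each runs from 250 bases before to 50 bases after a start, 5′ to 3′ on the strand of the gene. Capitals mark the CHR motif, TTTGAA, or its reverse complement where the motif lies on the other strand, as in Ttk.
The Bub1b promoter is at chr3:126016817-126017116 (plus strand), that of Cenpa at chr6:31431503-31431802 (minus strand), that of Cenpf at chr13:103760837-103761136 (minus strand), that of Nuf2 at chr13:84255549-84255848 (minus strand), and that of Ttk at chr8:93634389-93634688 (plus strand).
Bub1b: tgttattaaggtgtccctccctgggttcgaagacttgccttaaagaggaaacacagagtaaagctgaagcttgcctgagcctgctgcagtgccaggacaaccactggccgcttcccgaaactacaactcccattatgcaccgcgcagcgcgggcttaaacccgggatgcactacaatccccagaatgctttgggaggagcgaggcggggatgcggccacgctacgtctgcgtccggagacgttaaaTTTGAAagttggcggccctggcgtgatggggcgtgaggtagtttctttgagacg
Cenpa: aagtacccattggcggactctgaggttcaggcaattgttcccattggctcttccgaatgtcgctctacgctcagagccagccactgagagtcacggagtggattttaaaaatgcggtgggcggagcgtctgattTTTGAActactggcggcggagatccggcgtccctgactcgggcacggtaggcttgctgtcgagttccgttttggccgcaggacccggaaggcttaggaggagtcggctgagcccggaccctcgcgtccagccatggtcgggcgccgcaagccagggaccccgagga
Cenpf: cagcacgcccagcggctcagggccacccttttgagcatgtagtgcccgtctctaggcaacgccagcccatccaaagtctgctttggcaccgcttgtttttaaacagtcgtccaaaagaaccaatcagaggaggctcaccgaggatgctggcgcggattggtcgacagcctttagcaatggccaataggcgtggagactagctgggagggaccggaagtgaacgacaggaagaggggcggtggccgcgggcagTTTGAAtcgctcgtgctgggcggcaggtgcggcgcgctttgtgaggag
Nuf2: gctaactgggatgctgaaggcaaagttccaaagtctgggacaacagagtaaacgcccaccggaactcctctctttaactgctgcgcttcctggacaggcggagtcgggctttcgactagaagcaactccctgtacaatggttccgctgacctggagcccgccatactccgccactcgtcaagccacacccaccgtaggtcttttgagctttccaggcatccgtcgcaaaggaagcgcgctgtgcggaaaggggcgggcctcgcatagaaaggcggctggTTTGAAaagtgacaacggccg
Ttk: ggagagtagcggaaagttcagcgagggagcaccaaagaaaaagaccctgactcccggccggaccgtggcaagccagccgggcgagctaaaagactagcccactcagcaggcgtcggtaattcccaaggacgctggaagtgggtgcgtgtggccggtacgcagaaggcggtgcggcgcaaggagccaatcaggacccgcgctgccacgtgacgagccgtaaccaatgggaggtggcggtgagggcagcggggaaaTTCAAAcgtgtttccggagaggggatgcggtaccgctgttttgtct

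The table held 33 promoters for 32 of the 36 genes, with Mis12 given 2 starts. TTTGAA, read on both strands, was present in 15 of the 33 promoters, or 45.5%, against 18.3% of all 33469 promoters of the table and 13.2% of the 14099 promoters of genes tested. Of the 8 genes listed as peaking in G2 and M phase, 6 held it, all but Bub1 and Cenpe. Of the 25 promoters of the other genes, 9 held it. Among the 8 genes whose treated rats all lay above the controls, 5 held it. The match was thus present in genes that stood higher (Cenpa, Cenpf and Ttk) and in genes with a flat level (Nuf2, Spc25 and Mad2l1). Its first base lay 2 bases after the start in Cenpf, 4 bases before it in Bub1b, 4 bases after it in Ttk, 29 bases after it in Nuf2 and 116 bases before it in Cenpa.

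CCAAT, the core of the NF-Y box, was found in 15 of the 33 promoters on either strand, or 45.5%, against 37.5% of all promoters and 36.9% of those of genes tested. Cenpa, Cenpf and Ttk held both motifs. The E2F forms TTTGGCGC and TTTCCCGC were in 0 of the 33 promoters, against 0.493% and 0.974% of all promoters of the table. In promoters of genes tested the shares were 0.773% and 1.84%. With shares this low, 0 of 33 does not show a lack of such sites. All these motif counts are matches of letters in a window, and binding was not measured.

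**Figure D4:**
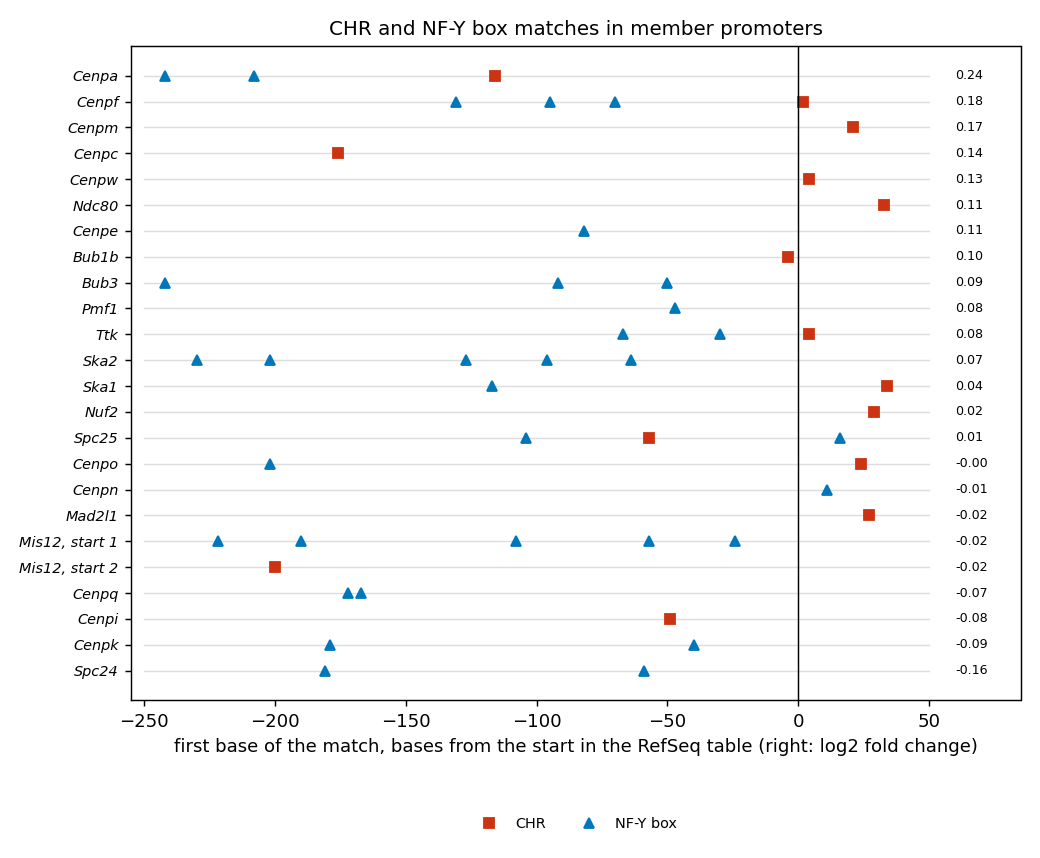
Position of the first base of each CHR (square) and NF-Y box (triangle) match relative to the start given in the RefSeq table (x axis, bases; both strands), for the promoters with at least 1 match, ordered by the log2 fold change printed at the right. CHR matches occur both in genes with positive log2 fold changes such as Cenpf (0.18) and in flat genes such as Nuf2 (0.02).

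Genes that act with the kinetochore were examined by lists of other kinetochore proteins, CENP-A deposition factors, the chromosomal passenger complex, the machinery that silences the checkpoint, and regulators of anaphase (Ccnb1, Ccnb2, Pttg1, Espl1, Plk1 and Cdk1). Of 43 genes listed, 39 were measured, and 25 log2 fold changes were positive and 14 negative, with a median of 0.05. With edgeR 0 of the 39 passed the threshold over all genes, while 11 had an unadjusted p below 0.05 with a higher level, against 4.19% of all genes, and 1, Cenpb, with a lower one, against 2.56%. DESeq2 called Plk1, Cdc20 and Ccnb1 among them, each higher, where it called 0.816% of all genes higher. Plk1, a mitotic kinase that acts at kinetochores, averaged 129.2 ± 10.4 CPM in controls and 160.5 ± 9.20 CPM after doxorubicin (SD, n = 4 each), and its log2 fold change was 0.31 (edgeR adjusted p = 0.0801, DESeq2 adjusted p = 0.000578). Cdc20, the APC/C activator that the checkpoint captures, averaged 168.6 ± 1.29 and 193.6 ± 9.90 CPM (SD, n = 4 each), and its log2 fold change was 0.20 (edgeR adjusted p = 0.0808, DESeq2 adjusted p = 0.00173). The groups of both genes did not overlap, where 2.77% of all genes were higher with no overlap.

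Ccnb1, which encodes cyclin B1, averaged 245.3 ± 3.58 CPM in controls and 274.7 ± 11.2 CPM after doxorubicin (SD, n = 4 each). Its log2 fold change was 0.16 (edgeR adjusted p = 0.107, DESeq2 adjusted p = 0.00746). Among the 6 regulators of anaphase all 6 log2 fold changes were positive, with a median of 0.18. Of these, 5 had an unadjusted edgeR p below 0.05 with a higher level, against 4.19% of all genes. All 6 genes of the chromosomal passenger complex and the shugoshins, which correct wrong attachments and protect cohesion, had positive log2 fold changes too, with a median of 0.09 and 3 such p values. The 18 genes of checkpoint silencing and the APC/C had 8 positive and 10 negative log2 fold changes, with a median of -0.0021. Among 5 other kinetochore proteins 2 were positive and 3 negative, with log2 fold changes of 0.05 for Knl1, the scaffold that Bub1 binds, and -0.07 for Kntc1, the third RZZ subunit.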

How the data were processed

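RNA from GFP-positive germ cells of 4 control and 4 doxorubicin rats was sequenced after polyA selection, per the labels' protocols. Build rn6 and these tools stand in the submitters' processing notes, with no role for each: kallisto 0.48.0, featureCounts, DESeq2 1.40.2, Trimmomatic, fastp 0.23.2, MultiQC 1.12 and FastQC 0.11.9. What the authors deposited is a table of unnormalized estimated counts by gene, and the strand setting is not given in the sources used here. Between 32.52% and 33.57% of values in a library were not whole, and values were rounded to whole numbers.

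Groups came from the sample titles, and each rat is a separate animal. The closest pair of libraries differed by a chi-square of 6.57 per gene, so all 8 were counted. Genes were kept by edgeR's filterByExpr (count minimum 10), scaled by TMM and tested with the quasi-likelihood F test (robust, no covariate) in R 4.3.3 with edgeR 4.0.16, adjusted by Benjamini-Hochberg over 16976 genes. The common biological coefficient of variation was 8.82%, and at 1 CPM the smallest library holds 41.3 counts. Blank symbols (2356 rows) were kept in library sizes. Alternatives were DESeq2 1.42.0 on all rows, limma-voom (limma 3.58.1), RLE factors, library size only, no filter, a fit without the robust option, a minimum mean of 1 CPM, a block for rats 1 to 4 against 5 to 9, and leaving out each rat. Fits within each set of rats were chosen after seeing the data. The procedure was tested on simulated data.

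The members and lists were chosen with earlier results of these data known. Genes given with every rat's value were those past the edgeR threshold, those with an unadjusted p below 0.05 and no overlap between groups, the 3 with the lowest log2 fold change, and the gene with the smallest p in each of 7 roles. Outside the 36, the rule named pathway genes past the edgeR or DESeq2 threshold, Cdkn1a, Mki67 and Top2a. Of the genes this rule names, 1 is not reported here. Other genes named with values, among them Cenpn, Nuf2, Spc25, Zwint, Bub1b and Mad2l1, were chosen after their values were seen. No gene lengths were used. Promoters are from RefSeq GRCr8 and motifs were searched on both strands. Cenps, Cenpx, Anapc11 and Cdc26 matched no row and were not analysed here.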

Additional observations from a re-analysis of the deposited data

Results flagged for a closer look

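Within the 86 groups of 4 rats examined (the 36 genes and 7 others named by rule, in controls and in treated rats), 3 held a rat whose distance to its nearest neighbour was large for the range of its group, where chance gives about 4.3. Cenpm was 40.46 CPM in control rat 1, against 42.83 to 43.25 CPM in the other controls. Plk1 was 174.1 CPM in doxorubicin rat 2, against 154.1 to 157.1 CPM in the other treated rats. Cdkn1a was 35.99 CPM in the same rat, against 14.96 to 16.9 CPM.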

How the results depend on the processing

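No member passed the edgeR threshold over all genes, nor with any 1 rat left out (range 0 to 0). DESeq2 called 2 members (Cenpa and Cenpf), the fit that was not robust 1 and the fit with a block for the rat sets 1 (Cenpf in both). The count of positive log2 fold changes was 20 to 28 over all alternatives. The count of members higher with no overlap was 6 with library size only and ranged from 8 to 12 with a rat left out (12 without doxorubicin rat 3). The count of members lower with no overlap was 0 with library size only and ranged from 1 to 4 with a rat left out. The share of all genes was not computed in these settings. The median over the 36 genes ranged from 0.0221 to 0.046 with a rat left out (0.046 without control rat 1) and was 0.0121 within rats 1 to 4 and 0.0491 within rats 5 to 9. That of the 28 genes outside the G2 and M list ranged from 0.0024 to 0.0213 (the latter without doxorubicin rat 3) and was -0.0108 and 0.0275 within the sets. Among genes given by name, Ska3 turned to -0.0064 within rats 1 to 4, and Mki67 to 0.0038 within rats 5 to 9 and to values from -0.0202 to 0.0152 with a rat left out. The other genes chosen by the naming rule kept their sign under all 18 alternatives. Genes named outside that rule were followed by name only within the sets of rats, where Ska1 (-0.0069) and Ska2 (-0.0147) turned within rats 1 to 4 and Cenpn (0.0165), Mad2l1 (0.0037) and Mis12 (0.0065) within rats 5 to 9, among others. Calls moved for 18 gene and setting pairs, each gaining a call, and the cause was not tested. Genes called over the whole table ranged from 0 within rats 1 to 4, over 1 without control rat 5 or doxorubicin rat 8, to 169 with DESeq2. No paired analysis was possible because the groups share no rat numbers. The 4 rats a group limit what can be called, at an interval of about 0.11 on the log2 scale to either side of an estimate.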
